A study of Mus musculus with 7 samples.

Results

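The genes described here are 49 mouse genes that drive DNA replication and the cell cycle, chosen from a list by name among the 21938 protein-coding genes of the GENCODE M21 annotation. They fall into 17 genes of the MCM helicase and replication origins, 6 of the DNA polymerases and their partners, 13 cyclins and cyclin-dependent kinases (CDKs), 6 E2F transcription factors and 7 genes of mitosis. Chromatin accessibility at these genes was read from bulk ATAC-seq, in which the Tn5 transposase inserts adapters into open DNA, on 7 libraries of HPC7, a mouse hematopoietic progenitor cell line grown with stem cell factor. The libraries, HPC7-1, HPC7-2 and HPC7-4 to HPC7-8, came from independent culture batches of this single line with 1 condition in the labels. The labels name no treatment, genotype or time point that separates them, and the study made them to define the open chromatin regions (OCRs) of the line.

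A cell copies its genome once per division. Origin recognition complex subunits (Orc genes) bind origins, Cdc6 and Cdt1 load the MCM helicase there, and cyclins with their CDKs then fire the origins and later drive mitosis. E2F factors bind the promoters of many of these genes, while the CHR element and CCAAT boxes are known from the promoters of genes used in mitosis. Blood progenitors divide rapidly, and D-type cyclins with Cdk4 and Cdk6 link growth factor signals to their cell cycle.

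The unit is the fold enrichment of an OCR, the reads at its summit over the background of its library, as the authors' peak caller wrote it. A gene's promoter value is the highest fold enrichment of an OCR that reached within 1 kb of any of its transcript starts. The lists held between 84593 OCRs in HPC7-6 and 132852 in HPC7-1, with a background between 4.44 reads in HPC7-2 and 20.4 reads in HPC7-1. Peak names inside the lists carry the prefix VD in HPC7-1, HPC7-2 and HPC7-4 and EtOH in the other 4, which neither the labels nor the study's text explain, and they were not used as conditions. All 9 listed genes of blood progenitors, Kit, Cd34, Gata2, Runx1, Tal1, Lmo2, Fli1, Meis1 and Spi1, had a promoter OCR in all 7 libraries. So had 55.9% of all protein-coding genes. At 6 of the 9 it lay in the top 10% of the OCRs of its library in all libraries, beside 32.3% of protein-coding genes. Of 12 listed genes of other cell types, 11 had none in any library, beside 38.2% of all protein-coding genes. The other, Col1a1, had one of 14.0 ± 2.52 (SD, n = 7).

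Nearly the whole engine was accessible. A promoter OCR was present in all 7 libraries at 48 of the 49 genes, against 55.9% of all protein-coding genes. The exception was Ccna1 (chr3:55045469-55055501, minus strand), a cyclin known from the male germ line, which had no promoter OCR in any library, as had 38.2% of all protein-coding genes. At 42 of the 49 genes the promoter OCR lay in the top 10% of the OCRs of its library in all 7 libraries, against 32.3% of protein-coding genes. Among the 12272 protein-coding genes with a promoter OCR in all libraries, 7090 met that limit, against 42 of 48 genes of the engine. The limit of the top 10% was chosen after values were seen. The genes were selected for what they do, and no test of the list as a whole was made.

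On OCRs merged over the libraries, the median distance between the summit of the strongest promoter OCR and the nearest start was 80.5 bp over the 48 genes, close to the 78 bp over 12374 protein-coding genes with a promoter OCR in all libraries. The summit lay within 200 bp at 45 of the 48 genes, beside 77.6% of those genes, and at or upstream of the start at 41, beside 61.5%. These shares were not tested. At 12 of the 48 genes the strongest promoter OCR also covered the start of a protein-coding gene on the opposite strand (25%), against 19.8% of the same 12374 genes. These were Mcm4 with Prkdc, Mcm7 with Ap4m1, Orc1 with Prpf38a, Orc3 with Rars2, Orc4 with Mbd5, Orc6 with Vps35, Cdc45 with Ufd1, Pole with Pxmp2, Rpa1 with Smyd4, Cdk2 with Pmel, E2f4 with Exoc3l and Aurka with Cstf1. For these genes an OCR value cannot be assigned to one gene of the pair.

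By group, the median percentile of the promoter OCR within its library was 97.7 ± 0.241 for MCM and origin genes, 97.3 ± 0.474 for polymerase genes and 97.3 ± 0.732 for E2F genes (SD of the group median over n = 7 libraries). It was 96.8 ± 0.433 for mitosis genes and 96.5 ± 0.801 for cyclins and CDKs. Over all protein-coding genes with a promoter OCR in all libraries it was 93.4 ± 1.02. Mean fold enrichments of single genes ran from 67.2 to 205 for MCM and origin genes and from 26.8 to 234 for E2F genes.

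**Figure D1:**
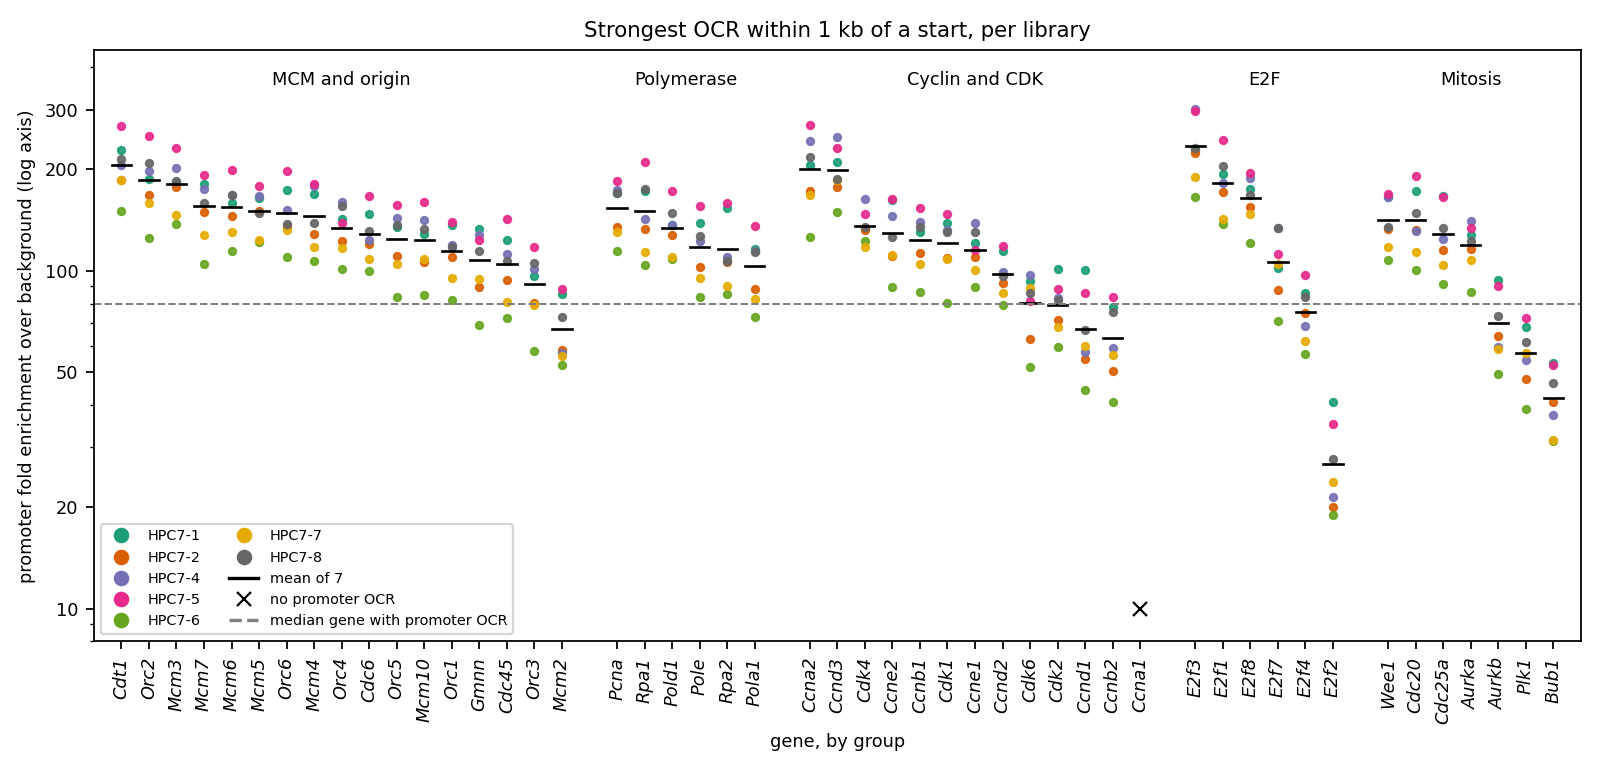
Promoter fold enrichment (log axis) of the 49 genes by group, with 1 point per library, a bar at the mean of 7 and a cross for Ccna1, which had no promoter OCR. The dashed line is the median of protein-coding genes with a promoter OCR in all libraries, and E2f2 and Bub1 lie below it in every library while E2f3, Ccna2 and Cdt1 lie above it in every library.

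Libraries differed in scale across all these genes at once. HPC7-5 had the highest promoter value at 33 of the 48 genes and HPC7-6 the lowest at 47, the other being Cdk4, lowest in HPC7-7. The coefficient of variation over the 7 libraries was between 11.2% and 31.0%, with a median of 20.3%. Reads at the promoter summits numbered between 108 and 4874. Genes are compared below within each library, where depth and background cancel.

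Among the MCM and origin genes, Cdt1, the licensing factor that brings the helicase to origins, had the highest promoter values. They ran from 150.5 in the lowest library over a median of 206 to 268 in the highest (mean 205 ± 37.0, SD, n = 7). Orc2, a subunit of the origin recognition complex, followed with 125, 188 and 250 (mean 185 ± 39.8). The ranges of both overlapped between libraries, but within every library Cdt1 lay above Orc2.

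The helicase subunits, whose 6 proteins form 1 ring, did not have equal promoters. Mcm2 was the lowest of the group with 52.6, 58.4 and 88.0 (lowest, median and highest library, mean 67.2 ± 14.8). Mcm3 had a mean of 180.3 ± 31.5, Mcm7 of 155 ± 30.8, Mcm6 of 155 ± 27.8, Mcm5 of 150.3 ± 21.4 and Mcm4 of 146 ± 30.0. In every library Mcm3 was above Mcm2, by between 2.14 and 3.54 times, and Mcm2 was the lowest of the 6. Mcm4, Mcm5 and Mcm6 could not be ordered, since Mcm5 was above Mcm4 in 4 of 7 libraries and Mcm6 above Mcm5 in 4.

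The next lowest of the group was Orc3, another origin recognition subunit, with 57.7, 96.2 and 118 (mean 91.1 ± 20.1). Between these ends lay Orc6 with a mean of 148, Orc4 with 134, Cdc6 with 128, Orc5 with 124, Mcm10 with 123 and Orc1 with 114. Gmnn, which encodes the Cdt1 inhibitor geminin, had a mean of 107 and Cdc45, a helicase cofactor, of 104. Of the 136 pairs of genes in this group 107 kept 1 order in all 7 libraries, but only 4 of the 16 neighbours in the ranking did.

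The order in this group moved with the chromosome. In HPC7 the upper end of promoter values, taken as the 90th percentile over all protein-coding genes of a chromosome relative to the median autosome, was 1.41 ± 0.0635 on chromosome 1, 1.45 ± 0.0490 on chromosome 8, 1.39 ± 0.0395 on chromosome 17 and 0.595 ± 0.0271 on chromosome X (SD, n = 7). Cdt1, Mcm5 and Orc6 are on chromosome 8 and Orc2, Mcm3 and Mcm6 on chromosome 1. Divided by the value of their chromosome, Mcm7 led with 154 and Mcm4 followed with 153, while Cdt1 came to 142, Orc2 to 132, Mcm3 to 129, Mcm6 to 110.5, Mcm5 to 104 and Orc6 to 103. Mcm2, on chromosome 6, was lowest on both scales, with 74.4 after the division. The part of chromosome copy number in these values was not tested.

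Promoters are printed here to show the elements that the members share, upstream bases only, 5′ to 3′ on the strand of the gene, from the RefSeq promoter table of GRCm38.p6. Capitals in the first set mark the E2F matches of Mcm6 (chr1:128359706-128359825, minus strand), E2f3 (chr13:29986064-29986183, minus strand) and Cdc25a (chr9:109875459-109875578, plus strand), chosen as members with E2F matches near the start and no annotated exon in the window.
Mcm6: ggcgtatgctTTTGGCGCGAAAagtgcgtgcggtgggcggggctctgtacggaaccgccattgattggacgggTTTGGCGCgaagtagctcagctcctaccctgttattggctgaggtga
E2f3: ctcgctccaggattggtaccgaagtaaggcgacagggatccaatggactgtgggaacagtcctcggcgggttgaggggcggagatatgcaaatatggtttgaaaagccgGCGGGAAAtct
Cdc25a: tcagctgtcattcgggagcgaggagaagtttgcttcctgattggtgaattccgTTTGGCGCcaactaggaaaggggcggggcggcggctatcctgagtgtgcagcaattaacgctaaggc

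In the second set capitals mark CCAAT boxes and CHR elements, in either orientation. The set has Mcm3 (chr1:20820313-20820432, minus strand) and Ccnb2 (chr9:70421555-70421674, minus strand), each with 3 CCAAT boxes in a row, Mcm2 (chr6:88898781-88898900, minus strand) with 1 CHR element, and Ccna1 (chr3:55055056-55055175, minus strand), the member without a promoter OCR, for comparison.
Mcm3: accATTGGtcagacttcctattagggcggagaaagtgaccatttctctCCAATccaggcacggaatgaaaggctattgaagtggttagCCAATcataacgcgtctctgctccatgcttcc
Ccnb2: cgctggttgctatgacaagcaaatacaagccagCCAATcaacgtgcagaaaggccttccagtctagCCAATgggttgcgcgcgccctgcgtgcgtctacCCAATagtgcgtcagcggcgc
Mcm2: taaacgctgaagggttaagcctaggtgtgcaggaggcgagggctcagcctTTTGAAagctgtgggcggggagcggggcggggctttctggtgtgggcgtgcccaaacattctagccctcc
Ccna1: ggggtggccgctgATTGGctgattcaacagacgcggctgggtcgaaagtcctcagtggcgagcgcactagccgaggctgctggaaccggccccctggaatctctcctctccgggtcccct

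The table held 39 of the 49 genes, in 46 windows from 250 bases before to 50 after the start, all of them equal to the genome sequence at their coordinates. Mcm4, Gmnn, Pole, Ccna2, Ccnd1, Ccnd2, Ccne2, E2f4, Aurkb and Wee1 were not matched. An E2F match (TTTCCCGC, TTTCGCGC, TTTGCCGC or TTTGGCGC on either strand) stood in a window of 16 of the 39 genes (41.0%), against 2.26% of the 32851 windows of the table and 4.72% of the 9690 protein-coding genes that had a promoter OCR in all libraries. By group these were 8 of 15 MCM and origin genes, 2 of 5 polymerase genes, 2 of 9 cyclins and CDKs, 3 of 5 E2F genes and 1 of 5 mitosis genes. In Mcm6 there were 3 matches, of which the first 2 overlap on opposite strands.

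CCAAT was in the windows of 30 of the 39 genes (76.9%), against 37.4% of all windows and 42.5% of protein-coding genes with a promoter OCR in all libraries. All 5 mitosis genes of the table had one, Aurka, Bub1, Cdc20, Cdc25a and Plk1. A CHR element (TTTGAA or TTCGAA) was in 12 of the 39 (30.8%), against 19.2% of all windows and 16.2% of those genes, and in 4 of the 5 mitosis genes. Counted per gene of the table instead of per window, the shares were 41.1% for CCAAT, 21.7% for CHR and 2.6% for E2F. When the 300 bases were centred on the OCR summit instead, the E2F match was in 12 of 38 genes (31.6%), against 4.36% of protein-coding genes with a promoter OCR in all libraries, and CCAAT in 28 (73.7%), against 38.0%. By group the E2F match was then in 6 MCM and origin, 2 polymerase, 1 cyclin or CDK, 2 E2F and 1 mitosis gene. The CHR element was then in 6 of 38 (15.8%), against 9.52%, with 2 of the 5 mitosis genes in place of 4 and 1 each of the MCM and origin and of the E2F genes in place of 3.

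The Sp1 match (GGGCGG) was in 33 of 39 genes (84.6%), against 67.4% of protein-coding genes with a promoter OCR in all libraries. The ETS match (CCGGAAG) was in 11 (28.2%), against 20.4% of those genes, and the E-box CACGTG in 5 (12.8%), against 11.6%. The median GC content of the windows was 63.0% for the 39 genes and 60.7% for protein-coding genes with a promoter OCR in all libraries. The median ratio of observed to expected CG pairs was 0.883 for the 39 genes and 0.753 for those genes. The part of base composition in these shares was not tested. A match is a string of letters and was not set against binding data.

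**Figure D2:**
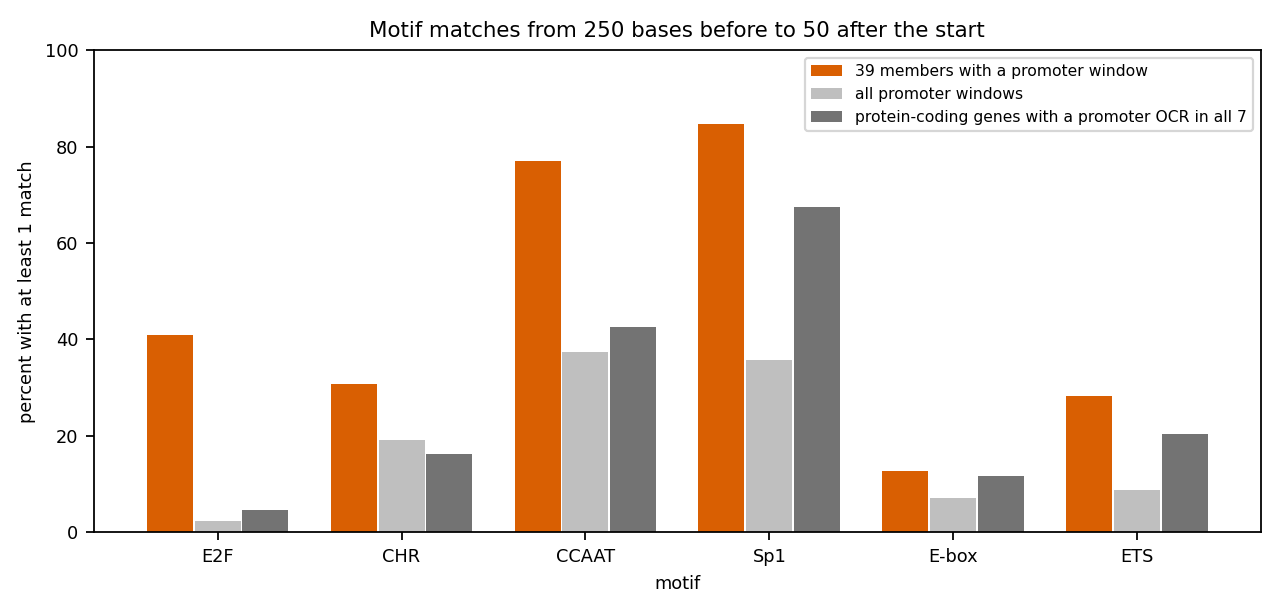
Percent of the 39 genes of the engine with at least 1 match to each motif (orange), of all promoter windows (light grey) and of protein-coding genes with a promoter OCR in all libraries (dark grey). The E2F bar stands at 41.0% for the genes of the engine beside 2.26% and 4.72%, and CCAAT at 76.9% beside 37.4% and 42.5%.

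At the replication fork, Pcna, the sliding clamp of the polymerases, had promoter values of 114, 169.5 and 184 in the lowest, median and highest library (mean 154 ± 26.8). Rpa1, the large subunit of the single-strand binding protein, had 104, 142 and 210.2 (mean 150 ± 37.7). Rpa2, a smaller subunit of the same protein, had 85.4, 107 and 159 (mean 116 ± 29.1). The ranges of the Rpa genes overlapped between libraries, but Rpa1 was above Rpa2 within all 7, by 1.29 times on average.

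Pold1, the catalytic subunit of the lagging strand polymerase delta, had 108, 137 and 172 (mean 134 ± 22.2). Pole, the leading strand polymerase, had 83.9, 122 and 155 (mean 118 ± 25.2). Pold1 was above Pole in 6 of 7 libraries by a mean of 0.20 ± 0.12 (SD) on the log2 scale, with the reverse order in HPC7-1 (exact permutation p = 0.0312, adjusted p = 0.0335). The call was lost when any library but HPC7-1 was left out, with an adjusted p of 0.0625 or 0.0670 in the same exact test. With 6 libraries, HPC7-1 of the reverse sign among them, too few sign patterns exist for that test to pass. The log2 ratio stayed between 0.17 and 0.24 when 1 library at a time was left out. Pola1, the polymerase that makes primers, was lowest of the group with 73.1, 113 and 136 (mean 103 ± 22.4). Pola1 is on chromosome X, and divided by the value of its chromosome it came to 174 and led the group.

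The pairs of related genes address which of 2 paralogs or partners has the more accessible promoter in this line. Among them Pole, Rpa1, Cdk2 and Aurka share their promoter OCR with a gene start on the opposite strand. Those values cannot be assigned to these genes alone. Of 15 pairs, 14 had an OCR at both genes. Each was tested on the log2 ratio within a library by a two-sided exact permutation test that flips the signs of the 7 libraries (128 sign patterns, smallest possible p = 0.0156), adjusted by Benjamini-Hochberg over the 15 pairs. In 12 of these 14 pairs all 7 libraries gave the same sign, with exact p = 0.0156 and adjusted p = 0.0180 each (0.0182 when adjusted over the 14 pairs alone). The pair of Ccna1 with Ccna2 is not counted, since a gene set to the lowest listed value cannot lie above its partner. Most pairs of any 2 genes with an OCR within a group also kept 1 order in all 7 libraries. These were 107 of 136 for MCM and origin genes, 9 of 15 for polymerase genes and 50 of 66 for cyclins and CDKs. For E2F genes they were 14 of 15 and for mitosis genes 17 of 21. A fixed order is thus not particular to related genes. The p-values of the pairs concern only whether a ratio keeps its direction over the libraries of this 1 line. With equal signs in all 7 libraries they stand at the smallest possible value, whatever the spread of the ratio.

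Among the A-type cyclins, Ccna2, which works with Cdk2 and Cdk1 in S phase and at entry to mitosis, had 126, 206 and 269.5 (mean 200.3 ± 48.7). It had the highest mean of all cyclins and CDKs. Ccna1 was listed with no OCR at any of its 6 starts in any library, so no fold and no test result is given for the pair. Ccna2 and Ccnd3 led the group without a fixed order as deposited, since Ccna2 was above Ccnd3 in 2 of 7 libraries. Divided by the chromosome values Ccna2 came to 207 and Ccnd3 to 143, and Ccna2 was above Ccnd3 in 7 of 7.

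By their strongest promoter OCR, the D-type cyclins, the partners of Cdk4 and Cdk6, were ordered Ccnd3, Ccnd2, Ccnd1. Ccnd3 had 149, 187 and 249 (mean 198 ± 34.1), Ccnd2 79.2, 96.4 and 119 (mean 98.0 ± 14.3) and Ccnd1 44.3, 59.7 and 100.5 (mean 67.1 ± 19.6). The range of Ccnd3 did not overlap either of the others, while those of Ccnd1 and Ccnd2 did. Ccnd3 was above Ccnd2 by 2.02 times and above Ccnd1 by 3.02 times on average, and Ccnd2 above Ccnd1 by 1.5 times, each in 7 of 7 libraries. Ccnd3 (chr17:47505051-47599691, plus strand) shares the raised level of chromosome 17, and divided by the chromosome values the log2 ratio of Ccnd2 to Ccnd3 moved from -1.01 to -0.39 with the same sign in all libraries.

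Which start was read matters for 2 of these cyclins. The strongest promoter OCR of Ccnd3 lay 90.7 kb downstream of its first start, at later starts near the end of the gene. The OCR at the first start had a mean of 47.3, below the promoter means of Ccnd2 (98.0) and Ccnd1 (67.1). The place of Ccnd3 above both thus rests on its later starts. At Ccnd1 the promoter OCR joined a neighbour whose summit lay 1644 bp upstream of the start in HPC7-1 only. In that library the value of 100.5 is that of the neighbour. In the other 6 libraries the neighbour was a separate OCR and was stronger than the OCR on the start, with 66.3 to 108. With 3 kb on either side of the starts, which takes in the neighbour, the log2 ratio of Ccnd1 to Ccnd2 moved from -0.58 to -0.20 and that of Ccnd1 to Ccnd3 from -1.59 to -1.21, with the same sign in all libraries.

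Cyclin B1, the main mitotic cyclin, had the more accessible promoter of the B-type cyclins. Ccnb1 had 86.4, 130 and 153 (mean 123 ± 22.8) and Ccnb2 40.8, 59.3 and 83.5 (mean 63.5 ± 15.9), without overlap of the ranges. The log2 ratio of Ccnb1 to Ccnb2 was 0.97 ± 0.19 (SD, n = 7), a ratio of 1.96.

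The E-type cyclins, which act with Cdk2 at the start of S phase, could not be told apart. Ccne1 had 89.8, 115 and 139 (mean 115 ± 16.8) and Ccne2 89.5, 126 and 163 (mean 129.6 ± 27.9). Ccne1 was above Ccne2 in 2 of 7 libraries, and the ratio of Ccne1 to Ccne2 lay between 0.707 and 1.03 (log2 mean -0.16 ± 0.22, exact sign-flip permutation p = 0.0938, adjusted p = 0.0938). Divided by the chromosome values, the log2 mean was -0.23 and the adjusted p fell to 0.0312 in the same exact test.

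Among the kinases, Cdk4 had 117, 134 and 163 (mean 136 ± 15.2), the smallest relative spread of all 48 genes. Cdk6, the other partner of D-type cyclins, had 51.8, 86.1 and 97.3 (mean 80.2 ± 16.7). The ranges did not overlap, and Cdk4 was above Cdk6 by a log2 ratio of 0.78 ± 0.30, or 1.72 times. Cdk1, the kinase of mitosis, had 80.3, 130.2 and 147 (mean 121 ± 23.0) and was above Cdk2, the kinase of S phase, with 59.4, 82.1 and 101 (mean 79.0 ± 13.9). That ratio was 1.52, between 1.35 and 1.67 over the libraries.

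**Figure D3:**
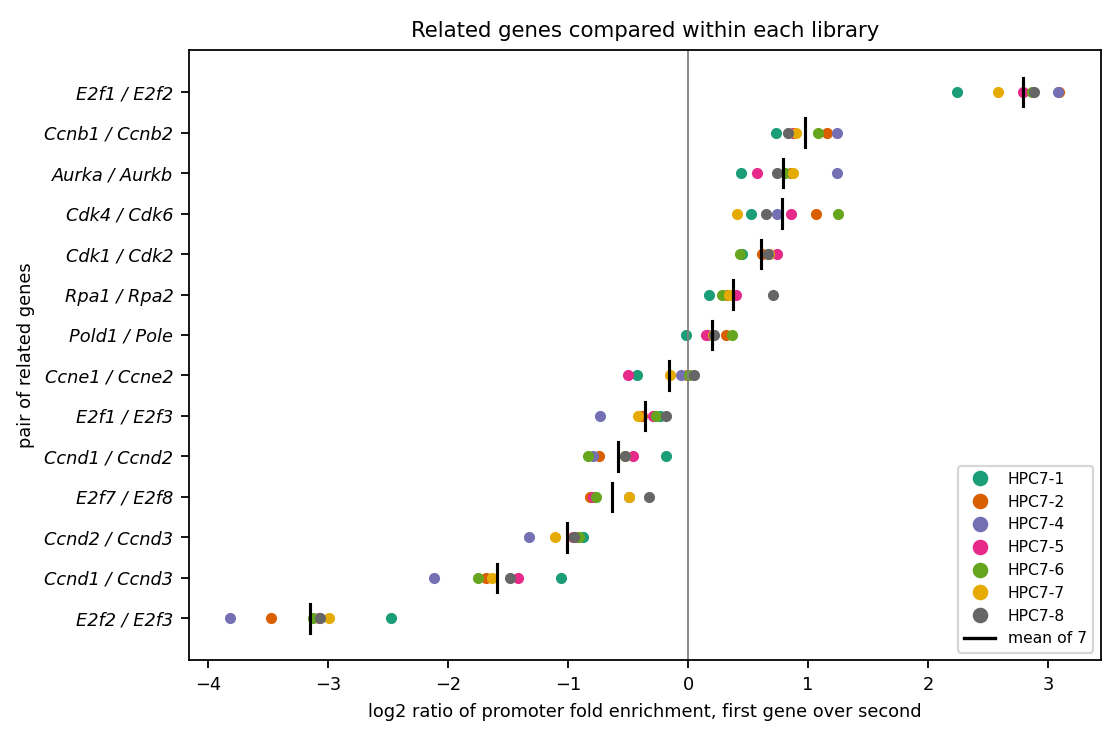
Log2 ratio of promoter fold enrichment of 14 pairs of related genes, first gene over second, with 1 point per library and a bar at the mean of 7. Points of a pair lie on 1 side of 0 in all pairs but Pold1 / Pole and Ccne1 / Ccne2, and the widest ratios are those of E2f2 to E2f3 and of E2f1 to E2f2.

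The E2F genes differed widely among themselves. E2f3 (chr13:29906575-29986063, minus strand), an activator of S phase genes, had the highest promoter values of all 49 genes with 166, 228 and 302 (mean 234 ± 50.7), above 98.0% of protein-coding genes with a promoter OCR in all libraries. E2f1, the founding activator, had 138, 182 and 243 (mean 182 ± 36.6). E2f2, the third activator, had 18.9, 23.7 and 40.9 (mean 26.8 ± 8.33) with the window of 1 kb. That was the lowest of the 48 genes and above only 15.1% of the same protein-coding genes. The range of E2f2 did not overlap that of any other E2F gene.

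Within libraries E2f1 was above E2f2 by 6.92 times on average (between 4.73 and 8.54) and E2f3 above E2f2 by 8.87 times (between 5.57 and 14.1). These ratios depend on the window, since starts with 3 kb on either side take in a stronger intronic OCR of E2f2. That OCR had a mean of 84.5, above the promoter mean of Plk1 (57.2), so the place of E2f2 as the lowest gene depends on the window too. The log2 ratio of E2f1 to E2f2 then moved from 2.79 to 1.12 and that of E2f2 to E2f3 from -3.15 to -1.48, both with the same sign in all 7 libraries. The log2 ratio of E2f1 to E2f3 was -0.36 ± 0.18, and -0.20 when divided by the chromosome values. E2f8 and E2f7, atypical E2F factors that repress, had 121, 168 and 195 (mean 164 ± 25.5) and 71.0, 105 and 134 (mean 107 ± 23.0), and E2f8 was the higher by 1.56 times. E2f4, best known as a repressor in resting cells, had 56.6, 75.1 and 96.9 (mean 75.6 ± 14.3). It is on chromosome 8, and came to 52.3 divided by the value of its chromosome. Of 15 pairs of E2F genes 14 kept 1 order in all libraries.

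In mitosis, Wee1, the kinase that restrains Cdk1, had 108, 135 and 168 (mean 142 ± 24.8). Cdc20, an activator of the anaphase-promoting complex, had 101, 132 and 191 (mean 141 ± 31.7). Wee1 was above Cdc20 in 4 of 7 libraries, so that they were not ordered. Cdc25a, the phosphatase that opposes Wee1, had a mean of 129 ± 28.8.

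The checkpoint kinase Bub1 was lowest of the group with 31.4, 41.0 and 53.5 (mean 42.0 ± 9.17), and Plk1, a kinase of mitotic entry, was next with 39, 56.9 and 72.7 (mean 57.2 ± 11.6). Plk1 was above Bub1 within every library although their ranges overlapped. Of the Aurora kinases, Aurka, of the spindle poles, had 86.4, 123 and 140.5 (mean 119 ± 18.2) and Aurkb, of the centromere, 49.4, 64.1 and 94.1 (mean 70.0 ± 16.8). Aurka was above Aurkb in all libraries by a log2 ratio of 0.79 ± 0.25, or 1.73 times.

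Beyond the promoters, OCRs were counted in the gene body and 10 kb on either side, leaving out those that reached a start of the gene itself. The median count per library was 6.14 ± 1.21 for E2F genes, 4.36 ± 1.25 for polymerase genes, 4.14 ± 0.690 for mitosis genes, 3.71 ± 0.951 for MCM and origin genes and 3.14 ± 0.690 for cyclins and CDKs (SD of the group median, n = 7). Over protein-coding genes with a promoter OCR in all libraries it was 4.43 ± 0.787. The polymerase, mitosis and MCM and origin medians lay within its SD, and no group was tested against it.

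**Figure D4:**
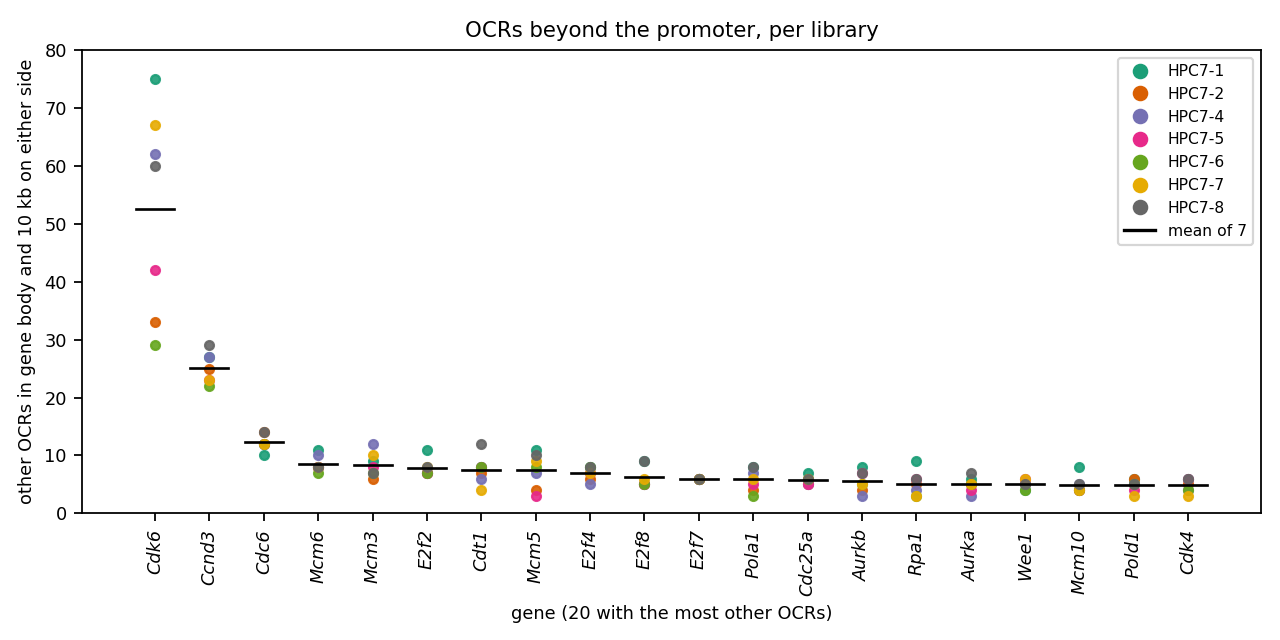
Number of other OCRs in the gene body and 10 kb on either side for the 20 genes with the most, with 1 point per library and a bar at the mean of 7. Cdk6 lies between 29 and 75 and Ccnd3 between 22 and 29, and all others stay at or below 14.

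Cdk6 and Ccnd3, a kinase and a cyclin that pair with each other, stood out by number. They were the only genes of the 49 with at least 20 other OCRs in all 7 libraries, a limit chosen after values were seen, which 1.26% of protein-coding genes met. Cdk6 had 75, 33, 62, 42, 29, 67 and 60 other OCRs in the libraries in the order of their numbers, most in HPC7-1 and fewest in HPC7-6. The 4 libraries with the most were also the 4 with the longest OCR lists, and the part of list length in these counts was not tested. Ccnd3 varied less, with 27, 25, 27, 23, 22, 23 and 29 in the same order.

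Both are long genes, and their windows spanned 209.5 kb and 115 kb. Per 10 kb of window, Cdk6 had 2.38 OCRs away from all starts, more than 98.7% of protein-coding genes, and Ccnd3 2.08, more than 97.4%. Cdc6, with 10 to 14 other OCRs in a window of 36.1 kb, had 3.16 per 10 kb, more than 99.8%. Mcm6 followed with 7 to 11 and Mcm3 with 6 to 12 other OCRs. At the other end, Plk1 had none in 6 libraries and 1 in HPC7-7, Mcm4 had 0 or 1, and Bub1 had no OCR away from all starts in any library, as had 21.6% of protein-coding genes. Ccna1 had 1 other OCR in each library, 9.1 kb upstream of its first start in an intron of 4931419H13Rik, with a mean of 9.69 ± 1.33.

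Many OCRs in Cdk6 were not found in every library. After merging OCRs of the 7 libraries that shared at least 1 bp, the window of Cdk6 held 85 away from all starts, of which 20 (23.5%) were found in all 7 libraries and 23 in 1 library. The window of Ccnd3 held 28, of which 13 (46.4%) were in all 7 and 5 in 1. Over the genome 41.6% of merged OCRs away from starts were in all 7 libraries and 19.3% in 1 library.

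The strongest OCR of Cdk6 (chr5:3341485-3531008, plus strand) was not at its promoter, where the summit of the promoter OCR lay 2844 bp past the first start, near a later start. It lay in an intron 156 kb downstream of the first start, with its summits between chr5:3497699-3497771 in all libraries. Its fold enrichment was 129 in the lowest library, 168 in the median and 228 in the highest (mean 172 ± 33.8, SD, n = 7). It exceeded the promoter OCR of Cdk6 in 7 of 7 libraries, by 2.15 times on average, and their ranges did not overlap. In HPC7-1, HPC7-4 and HPC7-7 its edge came within 1 kb of the start of the noncoding gene Gm42435, so it is not counted there among OCRs away from all starts. Weaker OCRs in all libraries flanked it at 153 kb, with a mean of 54.9 ± 13.1, and another stood at 63.8 kb, with 85.3 ± 19.0.

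**Figure D5:**
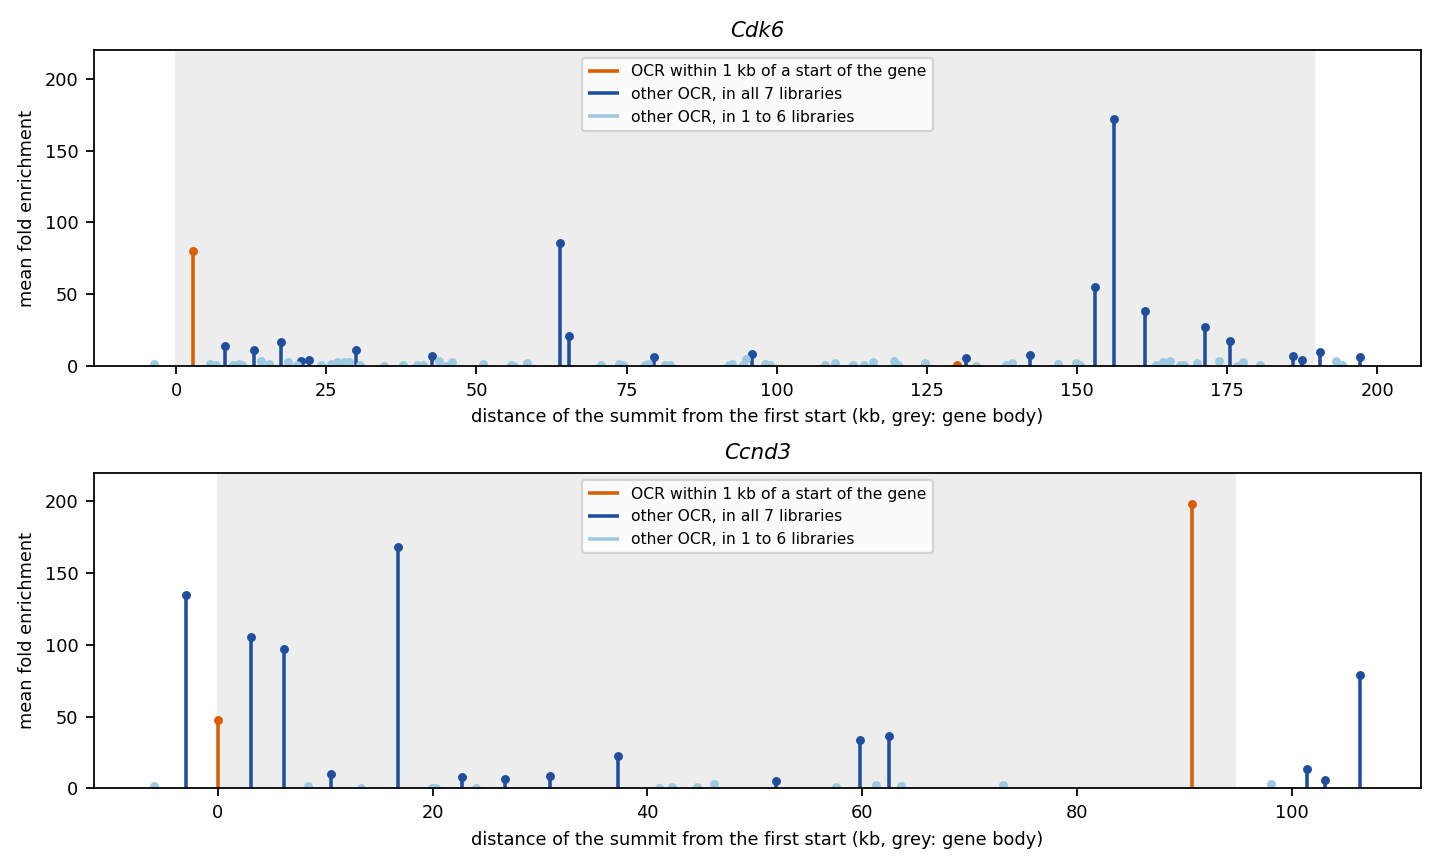
Mean fold enrichment over 7 libraries of each merged OCR along Cdk6 and Ccnd3, by the distance of its summit from the first start in kb (grey, gene body). In Cdk6 the tallest bar, 172, stands at 156 kb and the promoter bar at 80.2, and in Ccnd3 the tallest bars are the promoter OCR at 90.7 kb with 198 and an intronic OCR at 16.7 kb with 168.

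In Ccnd3, 3 intronic OCRs between its first and later starts were among the 10 strongest OCRs away from starts of all 49 genes. They lay 16.7, 3.09 and 6.22 kb downstream of the first start, with means of 168 ± 28.3, 105 ± 10.4 and 96.9 ± 17.9 (SD, n = 7). The first of them was stronger than 99.8% of merged OCRs away from starts that were found in all libraries. These means and ranks were not divided by the chromosome values, and that of chromosome 17 was 1.39.

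At E2f2 (chr4:136172394-136196057, plus strand) the strongest OCR was intronic too. An OCR 5.71 kb downstream of the first start of E2f2 had 55.2, 85.9 and 118 (mean 84.5 ± 21.2) and lay above the promoter OCR in 7 of 7 libraries, by 3.18 times on average, without overlap of the ranges. Counting every OCR with its summit over 1 kb from all starts, Cdk6, E2f2 and Aurkb had one stronger than the promoter OCR in all libraries, 3 of 49 genes beside 6.51% of protein-coding genes. At Aurkb the OCR lay between genes at -5.34 kb from the first start, with a mean of 80.7 ± 21.9. It was above the promoter OCR of Aurkb by only 1.15 times on average. The ranges overlapped, with 57.1 to 111 against 49.4 to 94.1 at the promoter. The comparison of these OCRs with the promoter OCRs was chosen after values were seen and was not tested.

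The DNA under these summits is given as 121 bases of the plus strand of mm10 around the summit, with motif matches on either strand in capitals. The motifs are GATA, searched as AGATAA, RUNX, searched as TGTGGT, the E-box with the letters CAGCTG, and ETS, which is GAGGAAG here besides the form used for promoters above. They are the OCR of Cdk6 at 156 kb (chr5:3497675-3497795), those of Ccnd3 at 16.7 kb (chr17:47521730-47521850) and 3.09 kb (chr17:47508079-47508199) and that of E2f2 at 5.71 kb (chr4:136178045-136178165), all in introns.
Cdk6 156 kb: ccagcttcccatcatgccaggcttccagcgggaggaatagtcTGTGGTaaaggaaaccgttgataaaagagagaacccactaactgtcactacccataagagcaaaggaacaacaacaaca
Ccnd3 16.7 kb: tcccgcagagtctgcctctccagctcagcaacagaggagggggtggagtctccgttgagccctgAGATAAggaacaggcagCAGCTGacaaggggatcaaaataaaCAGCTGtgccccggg
Ccnd3 3.09 kb: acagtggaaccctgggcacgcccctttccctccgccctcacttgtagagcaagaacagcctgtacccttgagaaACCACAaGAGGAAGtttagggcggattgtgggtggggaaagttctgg
E2f2 5.71 kb: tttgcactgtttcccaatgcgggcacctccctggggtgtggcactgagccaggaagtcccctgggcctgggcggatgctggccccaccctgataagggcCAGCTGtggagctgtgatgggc

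The windows thus hold a RUNX match at Cdk6, a GATA match and 2 E-boxes at Ccnd3, a RUNX match beside an ETS match at its second OCR, and an E-box at E2f2. Over the 124 OCRs away from starts found in all libraries around the 49 genes, 201 bases around the summit held GATA in 13.7%, RUNX in 25%, ETS in 17.7% and the E-box in 16.9%. Over all 49204 such OCRs of the genome these shares were 17.3%, 30.8%, 19.5% and 15.3%. These shares are given as a description.

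The remaining OCRs among the 10 strongest away from starts were at Cdt1, Cdc6, Cdk6, E2f2, Cdc25a and Ccnd1. These ranks count only merged OCRs with no part within 1 kb of a start. They leave out the OCR of Cdk6 at 156 kb (mean 172), that of Aurkb at -5.34 kb (80.7) and that of Ccnd1 at -1.64 kb (86.0). The strongest of those counted, with a mean of 170.0 ± 32.7, had its summit 11.2 kb upstream of Cdt1 in an intron of Gm20388. Its edge reached into the window of Cdt1. Its order with the OCR of Ccnd3 at 16.7 kb (mean 168) differed between libraries. It is on chromosome 8, where the chromosome value was 1.45, and these means were not divided by the chromosome values. The intronic OCR of Cdc6, 10.6 kb downstream of its start, had 85.6 ± 21.1. An intergenic OCR 3.54 kb upstream of Ccnd1 had 40.9 ± 8.33, and one 23.8 kb from the first start of Cdc25a had 83.5 ± 19.4. The OCR of Cdc25a was the narrowest of the 10, with 424 bp, and has a run of G at its summit. How reads map there was not tested.

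Other genes of the pathway, a list of 70 outside the 49, was read in the same way. A promoter OCR was present in all 7 libraries at 69 of them, beside 55.9% of protein-coding genes, and at 59 it was in the top 10% of every library, beside 32.3%. The exception was Pttg1, the anaphase inhibitor securin, which had none in any library. All 33 listed replication genes had one in all libraries, with means between 38.1 for Tk1 and 290.4 for Gins2. All 20 genes of cell cycle control had one, between 24.2 for E2f6 and 259 for Ccnf. These means were not divided by the chromosome values, and Gins2 is on chromosome 8, where that value was 1.45.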

How the data were processed

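Bulk ATAC-seq peak lists of 7 HPC7 libraries were analysed. The authors used Cutadapt for trimming, BWA-mem for alignment (mm10) and MACS2 for peaks of single libraries, with versions and options not given in the sources used here. The deposited lists give each peak a fold enrichment, a ratio, with a −log10 p, a −log10 q, a score and a summit. Fold enrichments were checked to be whole multiples of 1 step in each library (100% within 0.02), which gives reads and a single background. Poisson p-values from these differed from the deposited −log10 p by a median of at most 9.64e-06. No normalization between libraries was applied, and depth differed, so that genes were compared within libraries. Intervals cover the spread between libraries only.

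Starts came from GENCODE M21 and promoter windows from RefSeq (GRCm38.p6). The genes, groups, pairs and lists were chosen with earlier results of these data known. Values were named for the 2 highest and 2 lowest genes of each group, genes lacking a promoter OCR, both genes of each pair, the 5 genes with the most other OCRs and the 10 strongest OCRs away from starts. Alternatives were windows of 500 bp and 3 kb, coding transcripts, a −log10 q of at least 5, equal list lengths, scaling by chromosome, flanks of 0 and 50 kb, and each library left out. Tools were samtools 1.23.1, pysam 0.24.0, scipy 1.17.1, pandas 2.3.3 and numpy 2.4.6 in Python 3.11.15, and interval functions were tested on 2000 simulated windows against bedtools 2.31.1. HPC7-3 was not analysed here.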

Additional observations from a re-analysis of the deposited data

Results flagged for a closer look

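In 13 of 118 values tested, 1 library lay apart from the other 6 by more than Dixon's limit for 7 samples, which chance does in about 1 in 20. That rate is for continuous values. All but 1 of the 13 are small whole numbers with ties, where a single differing count passes the limit, so the rate does not apply to them.

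HPC7-1, with the longest list and the highest background of reads, held 8 of them, each a higher number of other OCRs than in the remaining 6 libraries. These were E2f2 with 11 (7 to 8 elsewhere), E2f1 with 9 (2 to 5), Mcm10 with 8 (4 to 5), Mcm2 with 7 (4 to 5), Rpa2 with 6 (3 to 4), Orc6 with 4 (2 elsewhere), Ccnb1 with 3 (2 elsewhere) and Ccne2 with 2 (1 elsewhere). The part of depth in these counts was not tested.

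HPC7-8 had 4 other OCRs at Cdc45 (3 elsewhere) and 5 at Orc3 (2 to 3). HPC7-6 had 5 at Ccnd1 (4 elsewhere), and HPC7-7 had 1 at Plk1 (0 elsewhere). The log2 ratio of E2f1 to E2f3 was -0.73 in HPC7-4 and between -0.42 and -0.18 in the other libraries, with the same sign throughout.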

How the results depend on the processing

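The number of genes with a promoter OCR in all libraries was 48 under all 12 alternatives, and no pair changed its direction under the alternatives run. The order of single genes within a group did change when scaled by chromosome. Mcm7 rose above Cdt1 and Mcm3 in 7 of 7 libraries, and Pola1 moved from rank 6 to rank 1 of its group. Leaving out 1 library at a time, Pold1 over Pole gave a log2 ratio between 0.17 and 0.24 and lost its call without HPC7-2, HPC7-4, HPC7-5, HPC7-6, HPC7-7 or HPC7-8, with an adjusted p of 0.0625 or 0.0670 by the exact sign-flip test, and kept it without HPC7-1. With 6 libraries fewer sign patterns exist, and with HPC7-1 of the reverse sign among them the test could not pass. With 3 kb on either side of the starts, E2f1 over E2f2 was 1.12, E2f2 over E2f3 -1.48 and Ccnd1 over Ccnd2 -0.20 on the log2 scale, all still called. Scaled by chromosome, Ccne1 over Ccne2 was -0.23 and passed.

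The median promoter percentile of MCM and origin genes was 97.5 when only OCRs with −log10 q from 5 upward were kept. With lists of equal length the medians were 97.2 (MCM and origin), 96.7 (polymerase), 95.6 (cyclin and CDK), 96.0 (mitosis) and 96.5 (all 49). As a percentile among promoters of all protein-coding genes they were 89.0, 87.1, 83.4, 87.5 (E2F), 84.6 and 86.3.

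The median of other OCRs depends on the window. In the gene body only it was 1.29 (MCM and origin), 1.5 (polymerase), 0.714 (cyclin and CDK), 2.21 (E2F), 0 (mitosis) and 1 (all 49). With 50 kb on either side it was 11.6, 11.9, 10.7, 14.8, 13.3 and 11.4. The order of the groups moved too, since mitosis genes were lowest with the gene body only and below only E2F genes with 50 kb. Without OCRs within 1 kb of other starts it was 2.43 (MCM and origin), 3.57 (polymerase), 2.29 (cyclin and CDK), 4.5 (E2F), 2.86 (mitosis) and 2.71 (all 49), beside 3.43 over protein-coding genes with a promoter OCR in all libraries. The promoter values carry no depth of the reads beyond the summit, and an OCR that was not listed may lie under the calling limit of its library.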
